A study of Rattus norvegicus with 6 samples.

Results

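The genes that build cholesterol, fatty acids and membrane phospholipids were followed in lung RNA of bleomycin-treated and control rats. The set holds 38 named genes, and all 38 were found by gene name among the 21210 genes that have at least 1 annotated transcript in the deposited table. The value of a gene in a rat was the sum of FPKM (fragments counted for a transcript, scaled by its length and by the mapped fragments of the library) over its transcripts, which were 140 of 70376 for these genes. The lungs came from Sprague–Dawley rats that were 7 weeks old, and were taken on day 28 after 1 intratracheal dose of bleomycin at 7 mg/kg (PF model, 3 rats) or of saline (control, 3 rats). Each rat gave 1 library of total RNA depleted of rRNA. Bleomycin is a DNA-damaging drug whose instillation scars the lung, so the model shows injury and repair at 1 late time point after a single dose. The labels say only control or model, and the spread between libraries was taken as that between rats.

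Cells make cholesterol and unsaturated fatty acids from acetyl-CoA, and the SREBP transcription factors set the pace of both routes. SREBPs are held in the endoplasmic reticulum with the escort protein Scap and the retention protein Insig1 until sterols run low, and are then cut and move to the nucleus. In the lung, alveolar type 2 cells use fatty acids and the choline pathway to make the phosphatidylcholine of surfactant. Whole lung mixes many cell types, so fewer cells of a type and less RNA per cell cannot be told apart here.

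Promoter sequences and the microRNA inside the Srebf2 gene are shown first. RefSeq promoters (GRCr8, 250 bases before to 50 after the start) were matched by symbol for 31 of the 38 genes. The letters CCAAT, the core of the NF-Y box that often stands beside SREBP sites, were searched on both strands and found in 21 of 31 promoters (67.7%), against 39.6% of 27457 genes. All 5 mevalonate genes held it, as did 5 of 7 promoters of the steps from squalene to cholesterol, 3 of 4 of the sterol sensing genes and 3 of 6 of the desaturases and elongases. A strict form of the sterol regulatory element, TCACNCCAC, was found in 1 of 31, against 1.25% of all genes. That promoter belongs to Pcyt1a, which holds no CCAAT in this window, so the 2 motifs overlap in no member. A match describes letters and not a bound site. Shown are the promoters of Hmgcs1 and Idi1, the mevalonate genes with the lowest fold changes, of Scd2, the most abundant member, and of Pcyt1a, with the matches in capitals (ATTGG is CCAAT on the other strand).
Hmgcs1, chr2:53382054-53382353, plus strand: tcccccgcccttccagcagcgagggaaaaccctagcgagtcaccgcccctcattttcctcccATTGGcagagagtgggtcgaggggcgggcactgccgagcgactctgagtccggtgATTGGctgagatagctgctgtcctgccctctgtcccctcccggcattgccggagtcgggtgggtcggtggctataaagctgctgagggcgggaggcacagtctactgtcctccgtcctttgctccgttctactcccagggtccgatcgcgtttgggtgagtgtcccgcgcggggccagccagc
Idi1, chr17:66547475-66547774, minus strand: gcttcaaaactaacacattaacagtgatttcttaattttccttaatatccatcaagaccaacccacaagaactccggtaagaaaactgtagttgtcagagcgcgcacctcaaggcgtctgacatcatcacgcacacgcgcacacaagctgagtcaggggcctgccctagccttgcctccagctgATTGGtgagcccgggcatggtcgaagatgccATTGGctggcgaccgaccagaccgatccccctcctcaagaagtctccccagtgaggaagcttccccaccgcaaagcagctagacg
Scd2, chr1:253118127-253118426, plus strand: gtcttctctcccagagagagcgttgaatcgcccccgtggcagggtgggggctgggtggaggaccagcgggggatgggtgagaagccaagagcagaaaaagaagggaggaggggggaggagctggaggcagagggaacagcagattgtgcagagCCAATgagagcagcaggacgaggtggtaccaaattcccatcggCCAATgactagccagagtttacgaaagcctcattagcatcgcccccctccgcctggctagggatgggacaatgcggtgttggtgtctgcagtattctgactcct
Pcyt1a, chr11:81862348-81862647, minus strand: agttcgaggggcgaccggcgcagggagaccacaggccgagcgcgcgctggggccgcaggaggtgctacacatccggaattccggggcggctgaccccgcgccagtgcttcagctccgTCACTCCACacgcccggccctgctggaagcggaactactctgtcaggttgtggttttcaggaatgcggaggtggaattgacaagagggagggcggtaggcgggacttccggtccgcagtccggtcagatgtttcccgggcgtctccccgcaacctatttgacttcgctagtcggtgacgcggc
In Hmgcs1 the matches begin 188 and 133 bases before the start, in Idi1 66 and 35, in Scd2 97 and 54, and in Pcyt1a 133.

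The microRNA miR-33, which lies in an intron of Srebf2 and represses cholesterol export, has 2 mature forms in RefSeq, shown with the seed (bases 2 to 8) in capitals.
rno-miR-33-5p: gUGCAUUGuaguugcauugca
rno-miR-33-3p: cAAUGUUUccacagugcauca
In the deposited table the precursor shares a locus with Srebf2. Its FPKM was 0, 0.41 and 0 in control and 1.05, 0.15 and 0.09 in model rats, and mature forms were not analysed here. These values lie near the floor, and whether they came from reads of the surrounding Srebf2 intron was not tested.

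The libraries were of similar depth, with 35778600 to 41112700 reads estimated from coverage, of which 0.303 to 0.379% fell on the 38 genes. The mean per rat was over 100 estimated reads for 37 of them, with a median of 1616. Structured small RNAs of Rfam families took 34.1 to 46.4% of all FPKM. The lung label fitted the markers of alveolar type 2 cells, all 10 of which were measured, with a summed FPKM of 4659 to 6395 in control and 5446 to 7009 in model rats. Of 8 genes of collagen-producing fibroblasts, Col3a1 alone passed an unadjusted 0.05 by limma (log2 fold change 0.30, adjusted p = 0.934), against 4.90% of all genes. Lox, of the same list, had no overlap in the other direction (log2 fold change -0.20). Model 3 stood apart in 7 heart muscle genes, whose summed FPKM was 30.9 there and 6.72 to 11.7 in the other 5 rats. Among them Myh6, a cardiac myosin heavy chain, was 5.11 in model 3, 0.034 in model 2 and 0 in the other 4. Nppa, the atrial natriuretic peptide, passed the call rule given below at FPKM of 0 to 0.17 (limma adjusted p = 0.934).

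The summed level of the lipid synthesis genes overlapped between control and model rats. It was 610, 572 and 673 in control rats and 615, 574 and 688 in model rats, so the lowest and the highest rats of both groups lay close to each other. Scd2 alone held 18.8% of this sum, and the 5 most abundant genes held 46.0%. A gene was called when its limma p was at most 0.05 and the log2 ratio of the group means was at least 1 in either direction. None of the 38 genes was called, against 1.53% of the 19203 genes tested. By p alone 1 of 38 passed, Lpin1, against 4.90% of all genes. By adjusted p below 0.05 none passed, against 0.0104% of all genes, and the adjusted p of the 38 was 0.934 or more. Samples of the 2 groups did not overlap in 3 genes (Scap and Pcyt1a higher, Lpin1 lower in model), against 10.7% of all genes. The log2 fold change of model against control was above 0 for 23 genes and below 0 for 15, against 47.7% of all genes above 0, with a median of 0.02 beside -0.01 for all genes tested. The count above 0 turned with single rats, being 14 of 38 without model 3 and 17 of 38 without control 2.

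**Figure D1:**
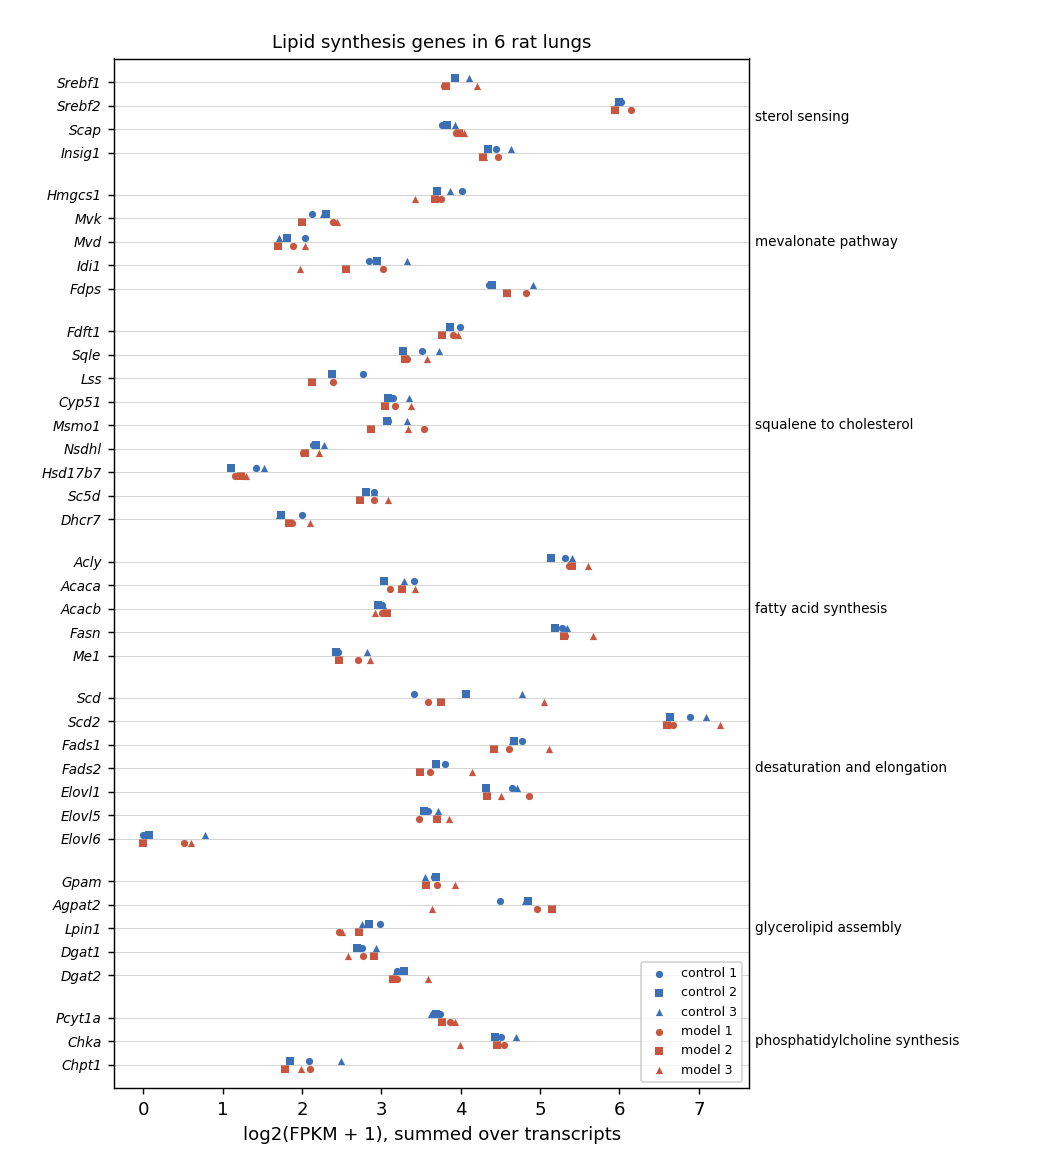
Level of each of the 38 genes in each rat, as log2(FPKM + 1) on the x axis, grouped by role on the right. Blue marks are the 3 control rats and red marks the 3 model rats, and marks of both colours lie among each other in 35 of the 38 rows.

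The fold changes were also bounded. The 95% interval of the log2 fold change lay within -1 and 1 for 35 of the 38 genes. The same held for 17820 of all 19203 genes tested and for 91.4% of the 13890 with a mean FPKM of at least 1. The exceptions among the 38 were Idi1, Scd and Agpat2, which were also the members with the widest spread between rats apart from the nearly silent Elovl6. Elovl6 counts among the 35, but at FPKM of 0 to 0.72 its interval is held narrow by the 1 added before the logarithm. The coefficient of variation within groups had a median of 13.6% over the 38 genes. It was 13.2% over all 13890 tested genes with a mean FPKM of at least 1.

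**Figure D2:**
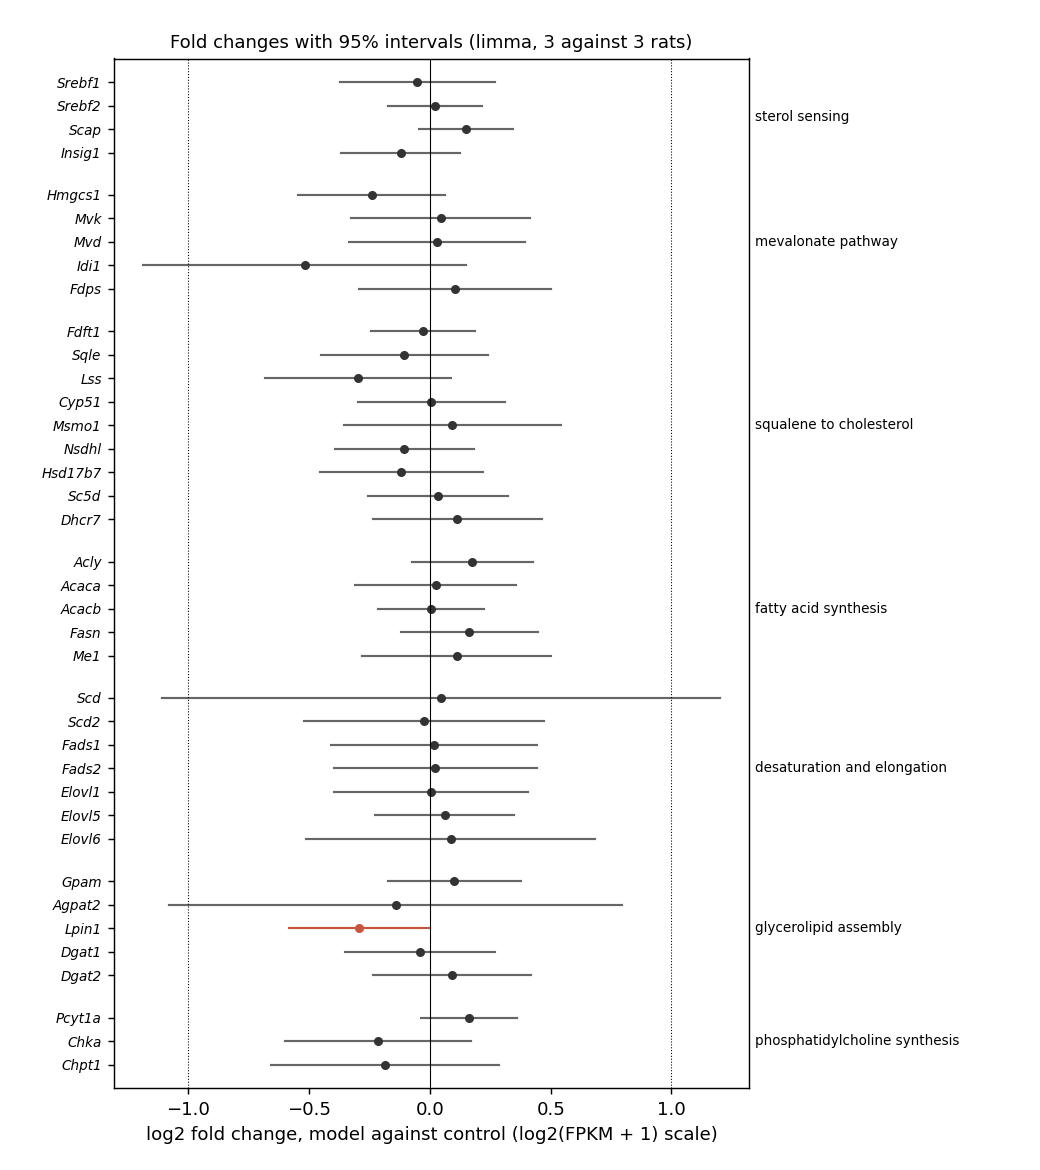
Log2 fold change of model against control for each gene (point) with its 95% interval (line), from limma on log2(FPKM + 1) in 3 against 3 rats. Dotted lines mark -1 and 1, and the red gene, Lpin1, is the only one with p of at most 0.05 before adjustment.

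Among the regulators, Srebf2, which drives cholesterol synthesis, was the second most abundant gene of the set and held its level closely. Its FPKM was 63.6, 62.6 and 61.6 in control and 69.8, 60.5 and 60.6 in model rats, a log2 fold change of 0.02 (95% interval -0.18 to 0.21). Only model 1 stood above the controls, but intronic pieces made 24.0% of Srebf2 FPKM. With annotated and junction-sharing transcripts alone it read 47.8, 48.2 and 44.0 in control and 53.0, 45.8 and 48.9 in model rats. On that sum models 1 and 3 stood above every control. Srebf1, which drives fatty acid synthesis, had a mean FPKM of 14.7 and a log2 fold change of -0.05 (-0.37 to 0.27).

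Scap, the escort of both SREBPs, read 12.6, 13.2 and 14.2 in control and 14.3, 14.7 and 15.5 in model rats. All model rats stood above all controls, by a small step of 0.15 on the log2 scale (-0.05 to 0.34, limma adjusted p = 0.934). Of Scap FPKM 23.2% came from a short assembled piece on the opposite strand. The main annotated transcript read 10.0, 10.4 and 9.96 in control and 11.5, 10.9 and 12.0 in model rats. Insig1, the retention protein and itself a well-known SREBP target, read 20.7, 19.4 and 23.8 in control and 21.2, 18.5 and 18.7 in model rats. These ranges overlapped, with a log2 fold change of -0.12 (-0.37 to 0.12).

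In the mevalonate pathway, which turns acetyl-CoA into isoprenoid units, 3 of 5 genes lay above and 2 below 0. Hmgcs1, HMG-CoA synthase, read 15.2, 12.0 and 13.6 in control and 12.4, 11.8 and 9.78 in model rats, a log2 fold change of -0.24 (-0.55 to 0.06, limma adjusted p = 0.934). Idi1, the isomerase of isopentenyl diphosphate, read 6.16, 6.68 and 8.998 in control and 7.08, 4.87 and 2.94 in model rats, a log2 fold change of -0.52 (-1.19 to 0.15, limma adjusted p = 0.934), and was given in full after its values were seen. Hmgcs1 is given by rat because a transcript of it was called. For both genes models 2 and 3 lay below every control, while model 1 lay within the control range. Without model 3 the log2 fold change of Idi1 was -0.25.

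Fdps, farnesyl diphosphate synthase, read 19.5, 20.1 and 29.0 in control and 27.2, 22.9 and 22.9 in model rats. Control 3 was the highest of all, and the log2 fold change was 0.10 (-0.29 to 0.50). Without control 3 it was 0.28 and passed 0.05 before adjustment. The kinase Mvk and the decarboxylase Mvd were low, at mean FPKM of 3.79 and 2.66, with log2 fold changes of 0.04 and 0.03.

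The 9 enzymes from squalene to cholesterol spanned mean FPKM of 1.45 (Hsd17b7, a sterol ketoreductase) to 13.8 (Fdft1, squalene synthase), and 4 were higher and 5 lower in model rats. The lowest log2 fold change was that of Lss, lanosterol synthase, at -0.30 (-0.68 to 0.09, limma adjusted p = 0.934), and the highest that of Dhcr7, the last reductase of one branch, at 0.11. Sqle, the rate-limiting squalene epoxidase, was at -0.11 (-0.45 to 0.24). Cyp51, the lanosterol demethylase, Msmo1 and Nsdhl, which remove the C4 methyl groups, Hsd17b7, Sc5d, the sterol desaturase, and Fdft1 lay between -0.12 and 0.09. None had p of at most 0.05, and no gene of this group separated control from model rats.

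Fatty acid synthesis was the group in which all 5 genes had a log2 fold change above 0, with a median of 0.11, although none reached p of at most 0.05. With sums weighted by length, with annotated transcripts alone or with voom, 4 of the 5 were above 0. The count was also 4 with annotated and junction-sharing transcripts alone, and without model 1, model 2 or model 3. Without control 2, the lowest rat in 4 of the 5, only 3 were above 0 and the median was 0.04. Acly, which makes cytosolic acetyl-CoA from citrate, read 38.7, 34.1 and 41.3 in control and 40.2, 41.3 and 47.7 in model rats, a log2 fold change of 0.18 (-0.08 to 0.43). Fasn, fatty acid synthase, read 37.8, 35.4 and 39.4 in control and 38.7, 38.6 and 49.9996 in model rats, a log2 fold change of 0.16 (-0.12 to 0.45). In both genes model 3 was the highest rat and the other model rats lay within or at the edge of the control range. The acetyl-CoA carboxylases Acaca and Acacb were at 0.02 and 0.00, and Me1, the malic enzyme that supplies NADPH, was at 0.11.

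Among the desaturases and elongases, Scd2, a stearoyl-CoA desaturase, was the most abundant gene of the set. It read 117, 98.7 and 135 in control and 101, 95.5 and 153 in model rats, a log2 fold change of -0.03 (-0.52 to 0.47). Model 3 and control 3 were the highest rats of their groups, and the same order held for its paralog Scd.

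Scd read 9.64, 15.8 and 26.4 in control and 11.1, 12.5 and 32.0 in model rats, and is given by rat since its spread was seen to be wide. Its highest value was 3.32 times its lowest, and rats of one group differed far more than the group means, which were 17.3 ± 8.46 (SD, n = 3) and 18.5 ± 11.7 (SD, n = 3). Scd gave 7.59 to 17.3% of the summed FPKM of both desaturases. As paralogs may share reads, the split between the paralogs is uncertain.

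The front-end desaturases of polyunsaturated fatty acids had the same shape as each other. Fads1 read 26.3, 24.6 and 24.0 in control and 23.4, 20.4 and 33.7 in model rats, a log2 fold change of 0.02 (-0.41 to 0.44). Models 1 and 2 lay below every control and model 3 above every control, and Fads2, given by rat after its values were seen, had this order too, at 12.98, 11.9 and 11.8 against 11.3, 10.2 and 16.6. Elovl1, an elongase of very long chains, read 24.0, 18.9 and 25.2 in control and 27.95, 19.04 and 21.7 in model rats, with a log2 fold change of 0.00. Elovl5, which elongates polyunsaturated chains, was at 0.06 with a mean FPKM of 11.5. Elovl6, the elongase of palmitate, lay at FPKM of 0 to 0.72 and had the fewest estimated reads of the set, 15.1 per rat, so a difference was not detectable at this depth.

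Of the 12 genes of fatty acid synthesis, desaturation and elongation, 9 had their highest value in model 3 (75.0%), against 25.4% of genes with a mean FPKM of at least 1. With FPKM rescaled to TPM the counts were 9 of 12 against 34.7%, and with median-of-ratios size factors 8 of 12 against 22.2%. Over all 38 genes 19 were highest in model 3 (50%), while the 14 sterol enzymes had 5 in model 3 and 5 in control 3. Counts by highest rat were not among the planned results. Leaving out model 3, 1 of the 7 desaturases and elongases had a log2 fold change above 0 in place of 6, with a median of -0.17 in place of 0.02, and the 5 synthesis genes had a median of 0.04. Plin1, the fat droplet coat protein of adipocytes, was 0.59 in model 3 and 0.03 to 0.20 elsewhere. Adipoq, the adipocyte hormone adiponectin, was 0.22 in model 3, 0.12 in model 1 and 0 in the other 4 rats. Lep and Retn were at 0 in all controls and reached no more than 0.10 and 0.06 in model rats. Of the 8 adipocyte markers, Plin1, Adipoq and Lep were highest in model 3. Another 3 were highest in model 1, and 1 each in controls 1 and 3. The summed FPKM of all 8 adipocyte markers was 18.9 to 22.0 in control and 20.4 to 23.1 in model rats, with model 3 at 20.4. Most of this sum came from Lipe, Pparg and Cfd, at 8.71, 7.17 and 2.92 in model 3. Genes of collagen-producing fibroblasts also stood highest in model 3, with a summed FPKM of 586 there and 419 to 500 in the other 5 rats, and 5 of the 8 had their highest value in it. Type 2 cell markers summed to 7009 in model 3 and to 4659 to 6395 in the others, with 2 of 10 highest in model 3. Of the 8 macrophage markers found, 5 were highest in model 3. Their summed FPKM of 5095 there lay within the control range of 4715 to 5631. Lyz2 alone gave 5004 of it, so this sum says little about the other macrophage markers. The part of all these markers and of the heart muscle genes in the fatty acid values was not tested.

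**Figure D3:**
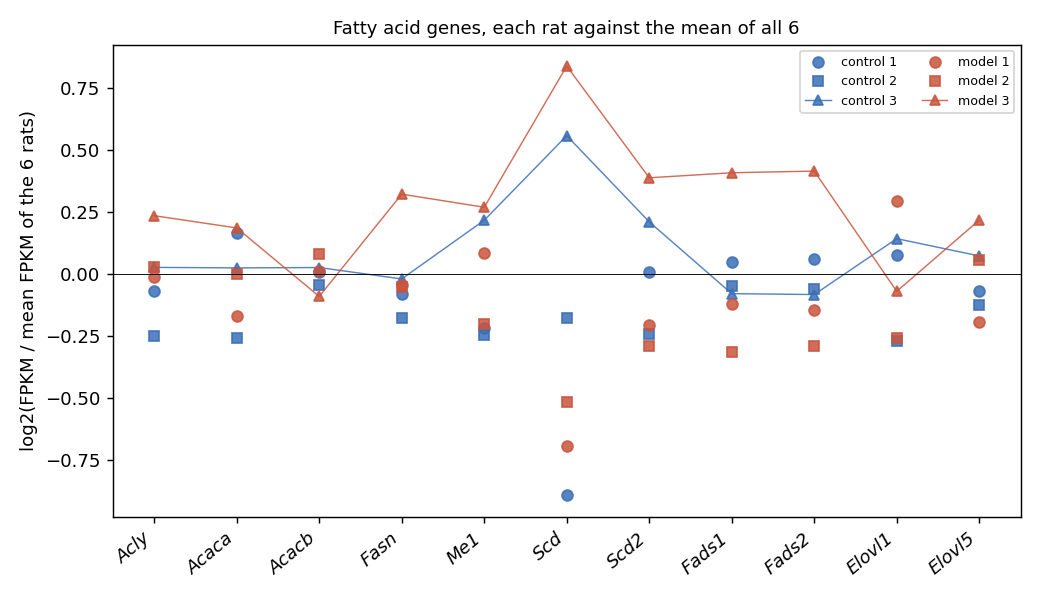
Log2 ratio of each rat's FPKM to the mean of all 6 rats (y axis) for 11 fatty acid genes (x axis), leaving out Elovl6, which is at 0 in 2 rats. Lines join model 3 (red triangles) and control 3 (blue triangles), and model 3 is the highest rat in 9 of the genes.

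In glycerolipid assembly, which joins fatty acids to glycerol, 2 of 5 genes were above 0 and 3 below. Lpin1, the phosphatidate phosphatase that yields diacylglycerol, read 6.88, 6.15 and 5.77 in control and 4.55, 5.60 and 4.66 in model rats. All model rats stood below all controls, with a log2 fold change of -0.29 (-0.59 to -0.00, limma adjusted p = 0.934). Lpin1 no longer passed 0.05 without any 1 of the rats other than model 2, and its log2 fold change was above 0 with sums weighted by length, with annotated transcripts alone and with voom. The annotated Lpin1 transcript did not share this order, at 2.49, 2.66 and 2.53 in control and 2.96, 2.65 and 3.32 in model rats. The lower sum lay in assembled pieces, of which intronic ones made 41.8% of Lpin1 FPKM and a junction-sharing one stood at 2.45 in control 1 and at most 0.21 elsewhere.

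Agpat2, which adds the next fatty acid to lysophosphatidic acid, had a gene sum that came mostly from another transcript. The sum read 21.6, 27.9 and 27.1 in control and 30.0, 34.6 and 11.4 in model rats, but 80.8% of it was 1 assembled transcript on the strand opposite to an Agpat2 exon. Without that transcript Agpat2 read 4.72, 3.74 and 4.76 in control and 3.78, 6.59 and 5.77 in model rats. The low sum of model 3 lay in the opposite strand, at 5.64 against 16.9 to 28.01 in the other rats. Gpam, the mitochondrial acyltransferase of the first step, Dgat1 and Dgat2, the diacylglycerol acyltransferases that make triglyceride, had log2 fold changes of 0.10, -0.04 and 0.09.

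In phosphatidylcholine synthesis, the choline route used for surfactant, Pcyt1a encodes the rate-limiting enzyme, which makes CDP-choline. It read 12.4, 11.9 and 11.3 in control and 13.5, 12.6 and 14.2 in model rats. Every model rat stood above every control, by 0.16 on the log2 scale (-0.04 to 0.36, limma adjusted p = 0.934). Chka, the choline kinase, read 21.7, 20.6 and 24.9 in control and 22.3, 20.9 and 14.9 in model rats, with model 3 lowest and a log2 fold change of -0.21 (-0.60 to 0.17). Of Chka FPKM 57.1% came from intronic pieces. With annotated and junction-sharing transcripts alone Chka was at -0.05 and model 3, at 8.90, lay within the control range of 8.15 to 9.97. Chpt1, the cholinephosphotransferase of the last step, was at -0.18 with a mean FPKM of 3.20.

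The table counts pieces of several kinds under 1 gene name, and these gave a varying part of each value. Annotated transcripts held 58.0% of the FPKM of the 38 genes and assembled transcripts that share a splice junction 30.0%. Intronic pieces held 6.55%, the transcript opposite to an Agpat2 exon 3.30% and other classes 2.17%. For 20 genes the last 3 kinds were absent, and for 8 they held over 20%, the highest shares being those of Agpat2, Chka and Lpin1. Pieces counted here as intronic or other also lay on the opposite strand in Scap, Acacb, Acly, Fdps, Chka and Pcyt1a.

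**Figure D4:**
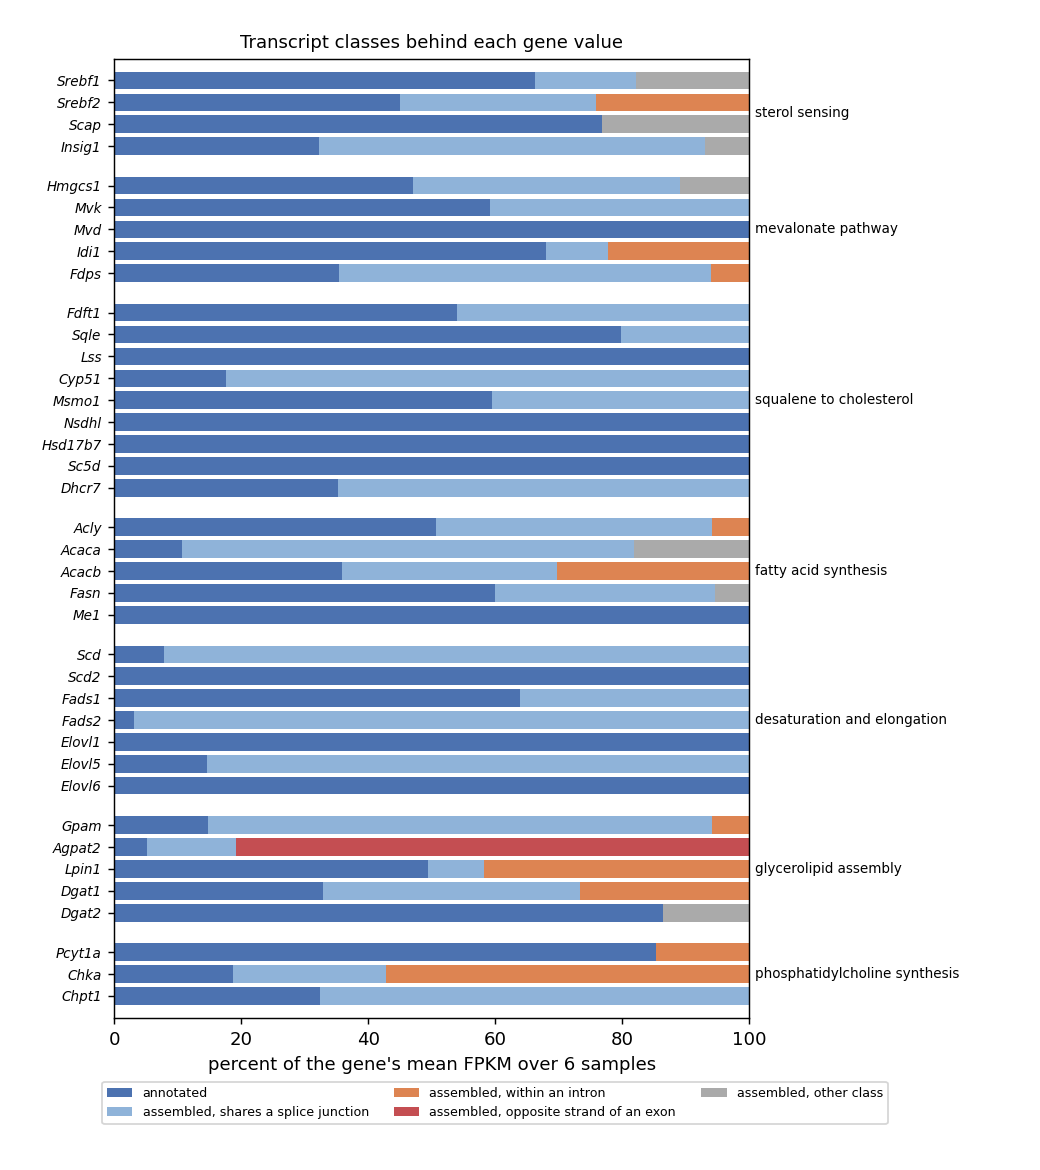
Share of each gene's mean FPKM over the 6 rats (x axis, percent) that came from each kind of transcript. Dark blue is annotated and light blue shares a splice junction, and the red bar of Agpat2 and the orange bars of Chka and Lpin1 are the widest of the other kinds.

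When annotated and junction-sharing transcripts alone were summed, an alternative chosen after these shares were seen, 2 of the 38 genes had p of at most 0.05, against 4.47% of all genes. Both were mevalonate enzymes and lower in model rats. Hmgcs1 read 13.5, 11.03 and 11.9 in control and 10.7, 10.1 and 9.49 in model rats (log2 fold change -0.24, limma adjusted p = 0.950). Idi1 read 4.96, 5.40 and 7.82 in control and 4.80, 3.62 and 1.98 in model rats (-0.69, limma adjusted p = 0.950). In both genes all model rats stood below all controls. Samples also did not overlap for Scap, Acacb and Pcyt1a, all higher in model rats, making 5 of 38 against 10.2% of all genes. Lpin1 was at -0.13 and its groups overlapped.

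**Figure D5:**
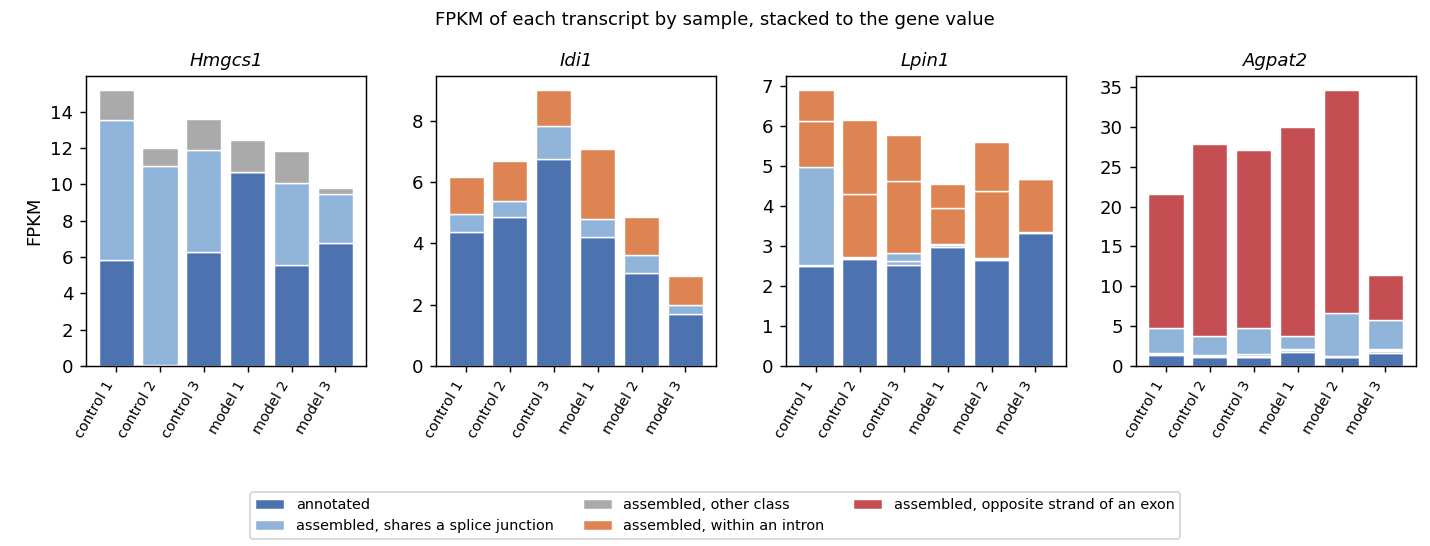
FPKM of every transcript of 4 genes in each rat, stacked to the gene value (y axis), with a white line between transcripts and colour for the kind of transcript. The annotated Idi1 transcript lies between 4.37 and 6.76 in control rats and between 1.70 and 4.22 in model rats, and the red part of Agpat2 is smallest in model 3.

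Over single transcripts, 3 of the 137 tested were called, against 2.98% of all transcripts, 5 had p of at most 0.05, against 4.53%, and 13 did not overlap, against 10.4%. None had an adjusted p below 0.05 by limma, against 0.0277%, and the smallest was 0.945. The called transcript with the highest level was a junction-sharing form of Hmgcs1, at 7.71, 10.98 and 5.61 in control and 0, 4.53 and 2.73 in model rats (limma adjusted p = 0.945). The annotated Hmgcs1 form had the higher mean in model rats, at 5.83, 0.05 and 6.27 in control and 10.7, 5.55 and 6.76 in model rats, so the sum of both differed far less between the groups than either form. The others were a short annotated form of Lss, at 0.30 to 1.03 in control and 0.04 to 0.20 in model rats, which rested on 2.85 estimated reads per rat, and a form of Srebf2 that rested on 12.7.

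Which transcript of a gene led changed from rat to rat in 16 of the 32 genes with 2 or more transcripts. Dhcr7, picked after its values were seen, is an example. Its annotated form gave 3.02 in control 1 and at most 0.40 elsewhere, a junction-sharing form gave 2.27 to 3.26 in 4 rats and 0 in the other 2, and another annotated form gave 2.25 in model 1 alone. The sum of all forms of Dhcr7 stayed between 2.27 and 3.27 in all 6 rats.

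Circular RNAs arise when an exon end is joined back to an earlier exon start, or from an excised intron. Of 5216 circRNAs in the deposited table, 12 (0.230%) came from 9 of the genes (Scap, Acaca and Acly more than once), while the set is 0.179% of the genes. Of the 12, 1 was intronic, from Scd2. The 12 together held 9 back-splice reads in control and 12 in model libraries. The highest total was 5 reads, for a circRNA of Scap, so none reached the 10 reads needed for the test, which 226 circRNAs did. A difference was not detectable at this depth.

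Other genes of the same pathways were listed to see whether the set missed a change, and 50 of 56 could be tested. None was called or had p of at most 0.05 by limma, against 4.90% of all genes. Of these, 28 were higher and 22 lower in model rats, with a median log2 fold change of 0.01. Samples did not overlap in 3 genes that were higher and 1 that was lower in model rats, against 10.7% of all genes. Among these, Ptdss1, which makes phosphatidylserine, and Cds2, which makes CDP-diacylglycerol, were higher in model rats. Acss2, which activates acetate, was the lower one. These genes are named after their values were seen. Etnk1, the ethanolamine kinase, has only 2 transcripts here, both assembled, and was outside the test. Whether these belong to its mRNA was not tested. The sum of both transcripts read 14.5, 16.2 and 16.7 in control and 10.99, 10.5 and 10.8 in model rats. No rat overlapped, as in 10.7% of the genes tested, and Etnk1 is named after its values were seen.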

How the data were processed

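Lung RNA of 3 control and 3 PF model rats was analysed, 1 library per rat, grouped by the condition in the labels. The authors trimmed the reads, mapped and assembled them (the submitters' processing notes name HISAT2, StringTie and TopHat), and deposited FPKM per transcript, normalized by the authors for transcript length and mapped fragments. The authors also deposited per-base coverage, a signal that is not normalized, and raw counts of back-splice reads per circRNA. The genome build is not given in the sources used here, nor is whether assembly used the strand that the kit keeps. The miRNA libraries were not analysed here.

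FPKM were summed per gene name over genes with at least 1 annotated transcript. Genes above 0 in at least 3 of 6 samples were tested on the scale log2(FPKM + 1) by limma 3.58.1 (R 4.3.3), with a trend in the variance, two-sided, adjusted by Benjamini-Hochberg over all genes tested. Fold changes on this scale understate the change of low genes. CircRNAs with at least 10 reads were compared with edgeR 4.0.16, with DESeq2 1.42.0 as an alternative. Reads per transcript were estimated from coverage and transcript length for reads of 150 bases, and intervals from 3 rats a group set the precision. Scripts were tested on simulated data. Tables and figures used Python 3.11.15, pandas 2.3.3 and matplotlib 3.10.9.

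Members and lists were chosen with earlier results of these data known. Values per sample are given for members with a mean FPKM of at least 20, with p of at most 0.05 or with groups that do not overlap. Other pathway genes and markers are named where p was at most 0.05, and transcripts where they were called or held most of a gene's FPKM. Outside these rules and after their values were seen, Hmgcs1, Idi1, Fads2, Scd and Dhcr7 were given by rat. Ptdss1, Cds2, Acss2, Etnk1, Lox, Plin1, Adipoq, Lep, Retn, Lipe, Pparg, Cfd, Lyz2 and Myh6 were named in the same way. A result on another pathway gene is not reported here. Alternatives were another pseudocount, other filters, scalings and sums, voom, a replicate block, and each sample left out in turn.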

Additional observations from a re-analysis of the deposited data

How the results depend on the processing

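None of the 38 genes was called under any alternative run, and the smallest adjusted p of a member by limma stayed at or above 0.819. The number of members with p of at most 0.05, 1 in the reported fit, was 0 with TPM, 0 with median-of-ratios size factors, 3 with sums weighted by length and 3 with voom (Scap higher, Hmgcs1 and Idi1 lower in both), 2 with annotated and junction-sharing transcripts alone, and 0 to 1 without each replicate in turn, being 0 without control 1, control 2 or model 3. Lpin1 turned to 0.035 with the weighted sum, 0.16 with annotated transcripts alone and 0.0595 with voom. Idi1 stayed below 0 throughout, at -0.81 to -0.25. Hmgcs1 was at 1.17 with annotated transcripts alone, where its junction-sharing form is left out. The median log2 fold change of the members was 0.10 with TPM, beside 0.05 for all genes, -0.05 without model 3 and -0.02 without control 2. Over all genes 293 were called, 80 with a mean FPKM of at least 1 and 519 with annotated transcripts alone, and the share of calls that were higher in model rats was 45.1%, against 58.4% with TPM. Of the other pathway genes 1 was called with annotated transcripts alone, Stard4. The called transcripts numbered 3, 1 with a mean FPKM of at least 1, and 2 to 5 without each replicate in turn. With the replicate number as a block 311 genes were called and 0 members had p of at most 0.05. Same-numbered samples correlated at 0.07, 0.03 and -0.08 in their deviations, and unlike-numbered ones at -0.14 to 0.10. No pairing by number was evident, though 3 rats a group are too few to show that there was none. Of 607 pairs of member and setting, 580 had p above 0.05 both ways, and the sign differed in 64 of these. With 3 rats a group, changes smaller than the printed intervals could not be resolved, and Elovl6 and all circRNAs lay too low to compare. DESeq2 gave 0 circRNAs of these genes with p of at most 0.05 with no minimum of reads.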
